A study of Mus musculus with 4 samples.

Results

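The flanks of CpG-dense stretches, known as shores, were examined in reduced representation bisulfite sequencing (RRBS) data of mouse induced pluripotent stem cells (iPSCs) and of neural cells. Autosomal cytosine positions with at least 5 methylation calls in iPSCs, iPSC-derived dopaminergic (iPSC-DA) neurons and primary mesodiencephalic dopaminergic (mdDA) neurons were used, 809067 positions in all. A run of at least 10 such positions with neighbors less than 100 bp apart was taken as a CpG cluster, and a position outside every cluster that lay 100 to 2000 bp from the nearest cluster edge was taken as a shore position. This gave 17133 clusters holding 540677 positions (66.8%) and 55122 shore positions (6.81%), and the remaining 213268 positions (26.4%) lay farther out. NESTIN-GFP precursors were read where they had at least 5 calls, which held for 38663 of the shore positions. No non-cluster position lay less than 100 bp from a cluster, because it would then have joined the cluster.

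There was 1 library of each of the 4 cell populations. The iPSCs had been made by retroviral reprogramming of Pitx3 Gfp/+ mouse embryonic fibroblasts, in which the gene for green fluorescent protein takes the place of 1 Pitx3 allele, and the iPSC-DA neurons were sorted on GFP after about 4 weeks on MS5 stromal cells with Noggin, the TGF-β inhibitor named SB431541 in the methods, SHH, FGF8, BDNF, GDNF, ascorbic acid and cyclic AMP. The mdDA neurons were sorted on GFP from Pitx3 Gfp/+ embryos at stage E14.5, so that iPSCs, iPSC-DA neurons and mdDA neurons were all heterozygous for Pitx3. The precursors were Nestin Gfp/+ cells after 14 days of differentiation, and the sample label calls them neurons. Per the paper they came from an iPSC-derived NESTIN-GFP line, and its fibroblasts of Nestin-Gfp mice were separate from the Pitx3 Gfp/+ ones. How many clones, cultures or embryos went into a library is not given in the sources used here, and cell identity could not be checked on expression in these data. Because each population was 1 library, every test below compares 2 libraries and not 2 conditions. The genotype and the line of origin of the precursors cannot be told apart from their stage. Each library held 31419979 (NESTIN-GFP) to 79648099 (iPSC-DA) methylation calls.

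DNA methylation at CpGs is set by DNA methyltransferases and removed through replication or through oxidation by TET enzymes. In mammals CpG-dense stretches, many of them promoters, mostly stay unmethylated, the sparse CpGs of the rest of the genome are mostly methylated, and the shore is the zone between them, known for differences in methylation between tissues and between pluripotent and differentiated cells.

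Promoter sequences from RefSeq (GRCm38.p6) show where shore positions were read. A cluster edge here is an edge of covered positions, so a shore can lie within a CpG-dense stretch. The Hhex, Cnpy1 and Trio windows printed below hold 37, 34 and 28 CpGs in 300 bases. The windows run from 250 bases before to 50 bases after the transcription start, and they were placed on the positions of the files by the spacing of their CpGs alone. The windows of Hhex, Cnpy1 and Trio are among the 5 with the most shore positions, 9 each, beside cluster positions, and the windows of Pax6 and Nes hold shore positions of genes on the list of dopaminergic, pluripotency and neural genes. Each is printed 5′ to 3′ in the direction of transcription, and capitals mark the CpGs that were read as shore positions.
Hhex: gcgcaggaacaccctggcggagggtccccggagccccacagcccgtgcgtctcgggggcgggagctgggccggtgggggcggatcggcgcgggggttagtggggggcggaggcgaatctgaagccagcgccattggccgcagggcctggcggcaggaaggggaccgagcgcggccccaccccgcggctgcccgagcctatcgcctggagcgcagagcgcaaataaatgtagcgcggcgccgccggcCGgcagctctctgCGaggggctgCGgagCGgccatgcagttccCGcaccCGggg
Cnpy1: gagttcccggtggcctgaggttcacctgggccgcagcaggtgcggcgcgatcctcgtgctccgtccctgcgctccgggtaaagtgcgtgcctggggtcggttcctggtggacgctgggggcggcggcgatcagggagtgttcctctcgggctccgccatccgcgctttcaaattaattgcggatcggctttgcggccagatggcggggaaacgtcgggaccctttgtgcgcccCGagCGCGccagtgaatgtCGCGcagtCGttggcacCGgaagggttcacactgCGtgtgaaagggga
Trio: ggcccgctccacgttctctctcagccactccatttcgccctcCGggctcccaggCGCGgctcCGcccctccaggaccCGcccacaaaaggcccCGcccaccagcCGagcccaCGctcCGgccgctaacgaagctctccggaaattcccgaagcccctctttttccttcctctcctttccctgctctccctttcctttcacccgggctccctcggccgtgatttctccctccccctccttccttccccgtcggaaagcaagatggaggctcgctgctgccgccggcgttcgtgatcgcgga
Pax6: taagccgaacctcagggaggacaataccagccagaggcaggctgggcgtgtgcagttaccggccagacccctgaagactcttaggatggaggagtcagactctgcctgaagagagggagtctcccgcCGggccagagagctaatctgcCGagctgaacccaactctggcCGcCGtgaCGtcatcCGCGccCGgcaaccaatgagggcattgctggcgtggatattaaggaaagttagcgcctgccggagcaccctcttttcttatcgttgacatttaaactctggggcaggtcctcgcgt
Nes: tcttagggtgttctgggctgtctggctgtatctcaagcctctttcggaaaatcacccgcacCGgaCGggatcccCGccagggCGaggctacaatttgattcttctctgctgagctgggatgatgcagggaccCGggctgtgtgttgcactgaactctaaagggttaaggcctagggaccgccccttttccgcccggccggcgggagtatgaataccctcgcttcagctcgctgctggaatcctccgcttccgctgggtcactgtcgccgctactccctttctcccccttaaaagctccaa
The file positions are chr19:37509081-37509380 on the plus strand for Hhex, chr5:28536659-28536958 on the minus strand for Cnpy1, chr15:27955554-27955853 on the minus strand for Trio, chr2:105508803-105509102 on the plus strand for Pax6 and chr3:87774765-87775064 on the plus strand for Nes, all as positions of the files, which fit the build NCBIM37 (mm9). Each window spans the promoter and the first transcribed bases.

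Hhex encodes a homeobox transcription factor of early endoderm and forebrain patterning. Its 9 shore positions, 157 to 186 bp from the cluster edge, had a mean methylation level, the percent of calls that were methylated, of 5.98% in iPSCs (0 to 26.1% over positions), 17.1% in NESTIN-GFP precursors (0 to 40%, 7 positions), 68.3% in the iPSC-DA (60.9% to 78.1%) and 6.57% in the mdDA library (0 to 30%). All 9 positions were called higher in iPSC-DA neurons than in mdDA neurons and than in iPSCs by the test described below. It called 18.2% and 27.0% of all autosomal positions higher. The 9 positions cover 6 CpGs, against 8 for Cnpy1 and 9 for Trio, and neighbors share reads, so they are not independent. Cnpy1 encodes a regulator of fibroblast growth factor signaling. Its 9 shore positions stood at 7.32% in iPSCs, 69.3% in NESTIN-GFP precursors, 35.8% in the iPSC-DA and 13.1% in the mdDA library, with 6 of 9 called higher in the precursors than in iPSCs, against 26.8% of all positions tested, and 2 of 9 (22.2%) higher in iPSC-DA than in mdDA neurons, near the 18.2% of all positions. The precursor library was thus the high one here, with 5 to 30 calls a position. Trio encodes a guanine nucleotide exchange factor that acts in axon guidance. Its 9 shore positions averaged 3.51% in iPSCs, 1.35% in NESTIN-GFP precursors, 3.05% in the iPSC-DA and 4.27% in the mdDA library, and none was called in any of the 4 comparisons. The windows of Poc1b and Hic1, also among the 5, are not printed. Their 9 shore positions each averaged 3.94% and 22.8% in the iPSC-DA and 11.7% and 9.08% in the mdDA library. In iPSC-DA against mdDA neurons 0 of 9 and 3 of 9 (33.3%) were called higher, against 18.2% of all positions.

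The same windows show a difference between kinds of CpG that bears on every level below. The enzyme that cuts DNA for RRBS, MspI, recognizes CCGG on both strands, and 52.8% of all 32851 promoter windows in the RefSeq table hold this motif. In the Hhex window the 2 shore positions within CCGG were at 24.7% in iPSCs, 73.3% in the iPSC-DA and 29.6% in the mdDA library, while the other 7 were at 0.636%, 66.9% and 0%. In the Trio window the 2 positions within CCGG were at 13.5% in iPSCs, 11.7% in the iPSC-DA and 14.8% in the mdDA library, and the other 7 at 0.659%, 0.584% and 1.26%. Over all placed windows the 1554 shore positions within CCGG had mean levels of 19% in iPSCs, 30% in the iPSC-DA and 25% in the mdDA library, against 2.73%, 12.2% and 5.32% at the 3666 other shore positions. The CCGG positions were higher by a similar amount inside clusters, with 17.9% against 1.28% in iPSCs, 26.7% against 9.50% in iPSC-DA neurons and 21.1% against 2.29% in mdDA neurons. In the NESTIN-GFP library the gap was smaller, with 36.0% against 31.3% on shores and 14.8% against 9.28% inside clusters. CCGG made up 29.8% of the shore positions in placed windows and 19.8% of the cluster positions.

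**Figure D1:**
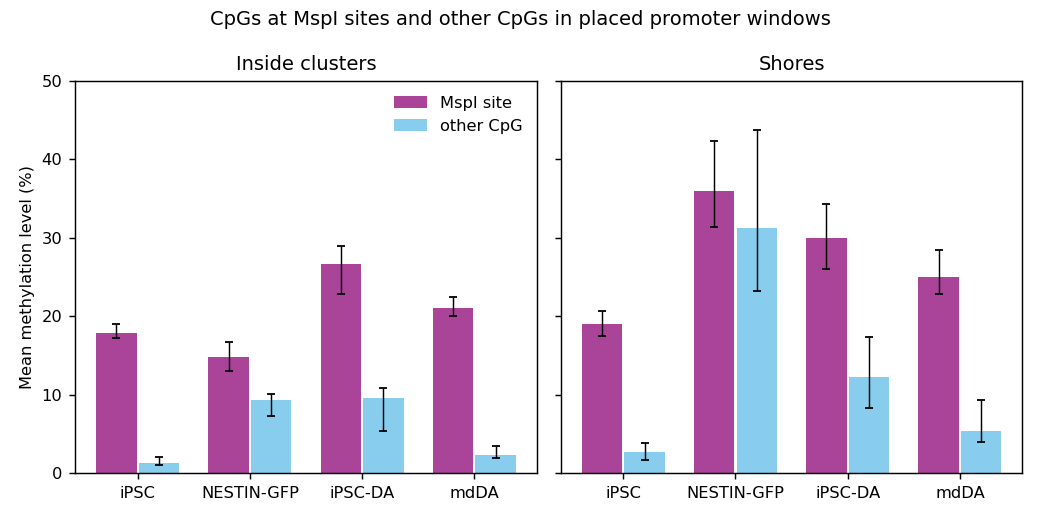
Mean methylation level in percent of CpGs within MspI sites (CCGG) and of other CpGs, inside clusters (left) and on shores (right), in placed promoter windows of each library. Bars give means over positions and whiskers the lowest and highest of 19 chromosome means. In iPSCs and both kinds of neuron the MspI sites were the higher ones in both zones.

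Since few positions could be matched to sequence, positions away from read ends were used to carry this comparison across the genome. A position was called interior if covered neighbors lay within 40 bp, the read length, on both sides and no adjacent position was covered. Of shore positions 35.2% were interior, against 54.4% of cluster positions and 19.9% of positions farther out. Only 3.43% of interior shore positions in placed windows were within CCGG. The main levels and counts below are given for all shore positions and again for the 19393 interior ones. This choice was made after the levels had been seen.

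Methylation rose across the shore in all 4 libraries. The mean level of the shore positions, 38663 in the precursors and 55122 in the other libraries, was 16.0% in iPSCs (12.4% to 18.5% over the 19 autosomes), 48.9% in NESTIN-GFP precursors (41.4% to 54.1%), 35.0% in the iPSC-DA (28.6% to 38.9%) and 24.0% in the mdDA library (18.6% to 30.3%). In iPSCs it went from 9.72% at 100 to under 200 bp through 12.0% at 300 to under 500 bp and 22.9% at 750 to under 1000 bp to 38.0% at 1500 to 2000 bp, and stood at 56.4% beyond. In mdDA neurons the same steps were 15.5%, 17.9%, 34.9% and 54.5%, and 72.3% beyond. In iPSC-DA neurons they were 25.4%, 29.7%, 46.5% and 63.7%, and 72.8% beyond. The rise from the innermost to the outermost distance came to 28.3 points in iPSCs (SD over autosomes 5.35), 39.0 in mdDA neurons (6.55), 38.2 in iPSC-DA neurons (7.16) and 36.1 in NESTIN-GFP precursors (6.21). The rises of iPSC-DA and mdDA neurons differed by less than the spread over chromosomes. In NESTIN-GFP precursors the level was 41.3% at 100 to under 200 bp, 37.6% at 200 to under 300 bp, 40.7% at 300 to under 500 bp and 77.4% at 1500 to 2000 bp, so that the second step was lower than the first. Positions just inside the edge, at 0 to 49 bp, were at 7.37% in iPSCs, 21.4% in the precursors, 21.8% in the iPSC-DA and 11.1% in the mdDA library. The step over the edge was thus largest in the precursors, whose shore level at 100 to under 200 bp was above that of each other library.

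Interior positions gave a lower and flatter inner shore. At 100 to under 200 bp they were at 4.39% in iPSCs, against 4.36% at the inside of the edge. In mdDA neurons these values were 8.66% and 7.75%, in iPSC-DA neurons 19.1% and 18.4%, and in NESTIN-GFP precursors 36.8% and 21.7%. At 300 to under 500 bp the interior level was 4.92% in iPSCs, 9.09% in mdDA neurons and 22.5% in iPSC-DA neurons. Beyond 500 bp iPSCs and mdDA neurons rose, to 24.1% and 38.9% at 1500 to 2000 bp. The median interior shore position was at 1.67% in iPSCs, 33.3% in the precursors, 14.3% in the iPSC-DA and 3.08% in the mdDA library. The order of the libraries was the same in both sets at every distance, with iPSCs lowest, then mdDA neurons, then iPSC-DA neurons and then the precursors. At 1500 to 2000 bp the ranges of chromosome means of neighbors in that order overlapped, with 23.6% to 47.8%, 44.0% to 66.5%, 52.1% to 72.2% and 62.2% to 86.2% over all positions. At 100 to under 200 bp only mdDA and iPSC-DA neurons overlapped, with 12.5% to 19.8% and 19.3% to 29.0%.

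**Figure D2:**
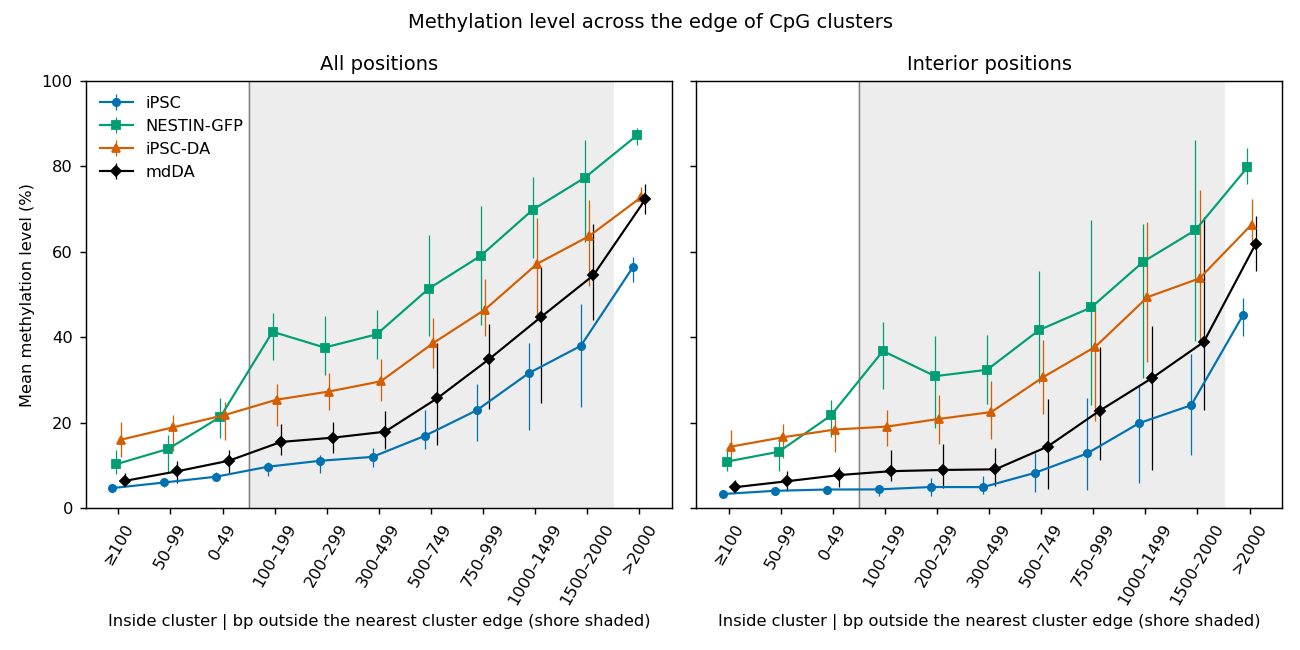
Mean methylation level in percent against position relative to the nearest cluster edge, for all positions (left) and for interior positions (right), in 4 libraries. Points are means over positions, bars run from the lowest to the highest of 19 chromosome means, and the shaded part is the shore. All 4 libraries were higher at the outer than at the inner end of the shore. From 100 to under 200 bp to the next distance the precursors fell, from 41.3% to 37.6% over all and from 36.8% to 30.9% over interior positions. The interior positions of iPSCs and mdDA neurons stayed flat up to 500 bp.

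The share of highly methylated positions grew with distance in every library, while the share at intermediate levels differed between the libraries. In mdDA neurons 71.8% of positions at 100 to under 200 bp were under 20%, 24.3% lay from 20% to 80% and 3.82% at 80% or more, and at 1500 to 2000 bp these shares were 30.5%, 27.5% and 42.0%. Between these distances its intermediate share reached at most 31.5%. In iPSC-DA neurons the intermediate share was 43.5% at 100 to under 200 bp and 44.5% at 1500 to 2000 bp, above that of mdDA neurons at every distance with a highest value of 51.2%, while the share under 20% went from 51.5% to 12.4%. In iPSCs the intermediate share went from 16.5% to 48.1%, and 14.2% of the outermost positions reached 80% or more. In NESTIN-GFP precursors 68.0% of the outermost positions did so. On interior positions of mdDA neurons the intermediate share was 9.05% at the innermost and 13.2% at the outermost distance, and in iPSC-DA neurons 32.8% and 44.5%.

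**Figure D3:**
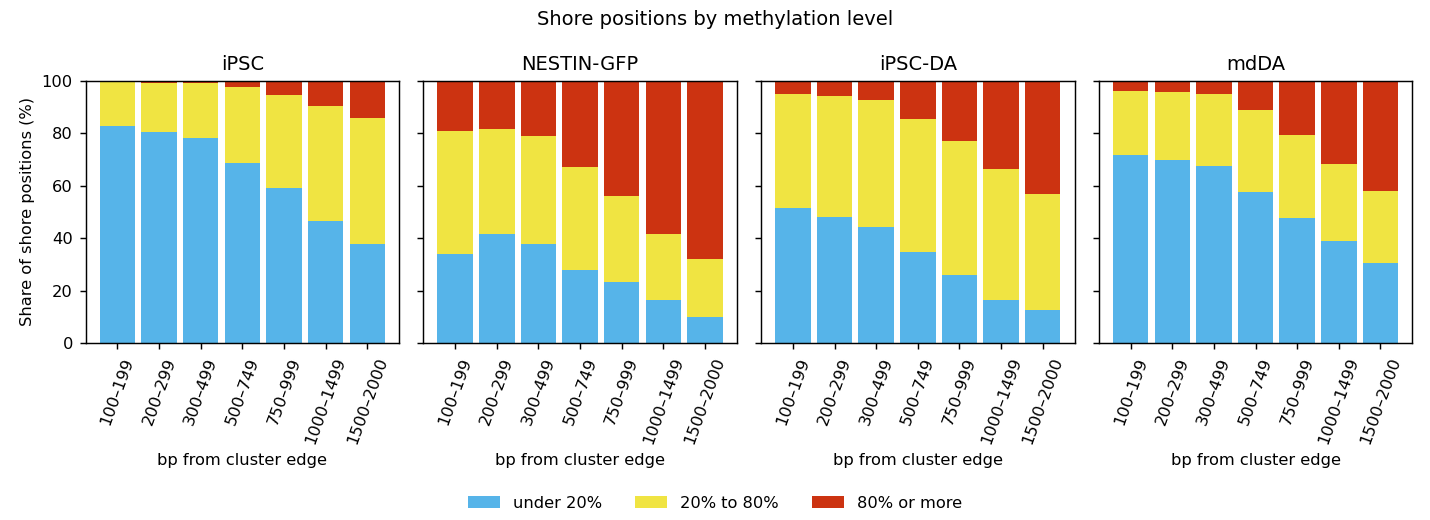
Share of shore positions in percent with a methylation level under 20%, from 20% to 80% and of 80% or more, against distance from the cluster edge in bp, with a panel for each library. The share at 80% or more grew with distance in all 4, from 3.82% to 42.0% in mdDA neurons, and the intermediate share of iPSC-DA neurons lay between 43.5% and 51.2%.

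To compare the iPSC-DA and the mdDA library, the methylated and unmethylated calls of each position were compared by Fisher's exact test, two-sided, adjusted after Benjamini and Hochberg over all autosomal positions, and counted as called where the adjusted p-value was below 0.05 and the levels were 20 points or more apart. The shore level was 35.0% in the iPSC-DA and 24.0% in the mdDA library, and the mean of the differences, 11.1 points, was above 0 on 19 of 19 autosomes (8.64 to 14.3 points). Of the 55122 shore positions 10968 (19.9%) were called higher in iPSC-DA neurons, against 18.2% of all autosomal positions, and 785 (1.42%) were called lower, against 2.36%. The share called higher lay near that of all positions in the main definition, but both shares depended on the settings. The share called higher was 13.7% for clusters of 5 or more positions and 23.2% for clusters of 20 or more. With a minimum of 20 calls it was 26.3%, and the share of all positions at that minimum is not given here. The share called lower was 3.15% for clusters of 5 or more positions, 2.40% for gaps under 200 bp and 0.649% for clusters of 20 or more. In the main definition both shares lay between those of the clusters, with 21.6% higher and 0.277% lower, and the positions beyond 2000 bp, with 9.29% and 7.89%. The mean difference of the shores did not lie between, with 11.1 points against 10.2 in clusters. Cluster positions had median calls of 88 in the iPSC-DA and 74 in the mdDA library, against 43 and 40 on shores. Beyond 2000 bp the 2 libraries had nearly equal means, 0.557 points apart. Within the shore the share called higher went from 15.9% at 100 to under 200 bp to 25.1% at 1000 to under 1500 bp and was 21.5% at 1500 to 2000 bp, where the share called lower, 0.369% at the innermost distance, was 3.84%. The mean difference at these 3 distances was 9.96, 12.4 and 9.20 points. Median calls at the first were 37 in the iPSC-DA and 31 in the mdDA library, and at the second 48 and 49. How far depth shaped the shares called was not tested by distance. Of interior shore positions 22.9% were called higher and 0.645% lower, near the 20.7% and 0.801% of all interior positions, with a mean difference of 12.9 points between 25.8% and 12.9%. Interior positions in clusters were called higher at 21.6% and those beyond 2000 bp at 13.4%, with mean differences of 10.1 and 4.55 points. The interior shore was thus above both. Its share called lower lay between their 0.193% and 5.09%.

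Against iPSCs, the calls on shores were mostly in the higher direction in each of the other libraries, in comparisons that share the iPSC library. In iPSC-DA neurons 17317 shore positions (31.4%) were called higher than in iPSCs, against 27.0% of all positions, and 236 (0.428%) lower, against 1.21%. With clusters of 5 or more positions 1.26% were called lower, and with clusters of 20 or more 0.191%. In mdDA neurons 4945 (8.97%) were called higher, against 8.86% of all positions, and 510 (0.925%) lower, against 1.10%. These shares were near those of all positions only for the main cluster definition, since the share called higher was 16.5% for clusters of 5 or more positions, 14.3% for gaps under 200 bp and 4.67% for clusters of 20 or more. Across the shore it rose from 3.72% at 100 to under 200 bp to 24.5% at 1500 to 2000 bp. In NESTIN-GFP precursors 17925 of 38663 positions (46.4%) were called higher, against 26.8% of all positions tested, and 125 (0.323%) lower, against 0.486%. The precursor share was above the background at every distance, from 38.5% to 55.8%, and near the 44.0% of positions beyond 2000 bp, although this library had a median of 14 calls at its shore positions, against 47 in iPSCs, 43 in the iPSC-DA and 40 in the mdDA library. Thinned to equal calls at each position, the share was 27.6%, against 16.6% of all positions tested. On interior shore positions 46.5% were called higher in the precursors, 31.7% in the iPSC-DA and 6.01% in the mdDA library, against 24.8%, 26.8% and 5.34% of all interior positions.

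**Figure D4:**
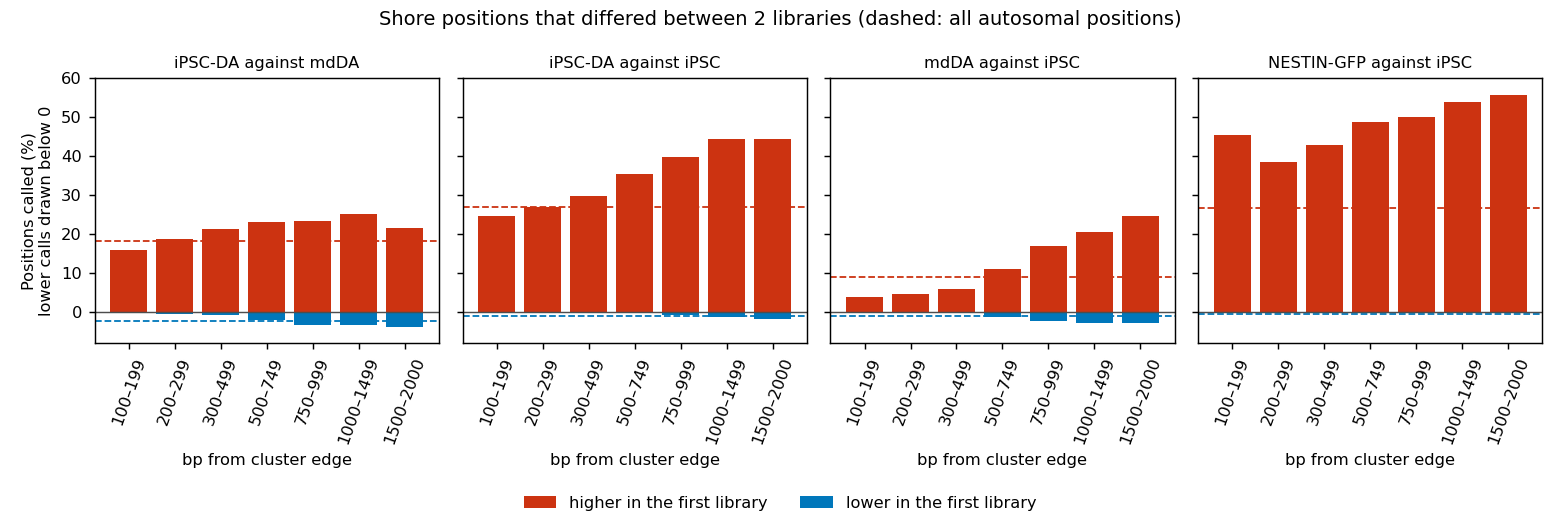
Share of shore positions in percent called higher (above 0) or lower (drawn below 0) in the first-named library, against distance from the cluster edge in bp, for 4 comparisons. Dashed lines give the shares over all autosomal positions. The share higher in mdDA neurons than in iPSCs crossed the dashed line of 8.86% from 500 bp on, and the share higher in NESTIN-GFP precursors was above its line throughout.

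Shores took different courses beside different clusters. Of the clusters, 9054 (52.8%) had a shore position, and 1824 of these had one on both sides. Beside 5262 clusters that were under 20% in iPSCs and both kinds of neuron, the 31035 shore positions averaged 11.8% in iPSCs, 40.4% in NESTIN-GFP precursors, 21.6% in the iPSC-DA and 18.9% in the mdDA library. Here the neurons were close, 2.67 points apart (1.25 to 3.79 over autosomes), and both rose with distance, from 12.7% to 62.0% in iPSC-DA neurons and from 11.3% to 58.0% in mdDA neurons. Beside 2561 clusters that were at least 20 points higher in iPSC-DA than in mdDA neurons and under 20% in iPSCs and mdDA neurons, the 17056 shore positions averaged 15.5%, 49.9%, 47.1% and 19.3% in the same order. The shore difference was 27.7 points (23.0 to 31.9). At these shores iPSC-DA neurons were already at 42.9% at 100 to under 200 bp and at 58.9% at 1500 to 2000 bp, while mdDA neurons went from 12.9% to 39.1%. The difference fell with distance from 30 to 19.7 points, and on interior positions it was 32.4 points at the innermost and 28.0 at the outermost distance. Clusters were grouped by their own calls, not by those of their shores, but the clusters and the shores come from the same libraries. Beside 266 clusters at 50% or more in iPSCs and both kinds of neuron there was no rise, with 92.8% at the innermost and 87.5% at the outermost distance in mdDA neurons and 68.8% and 66.7% in iPSCs.

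**Figure D5:**
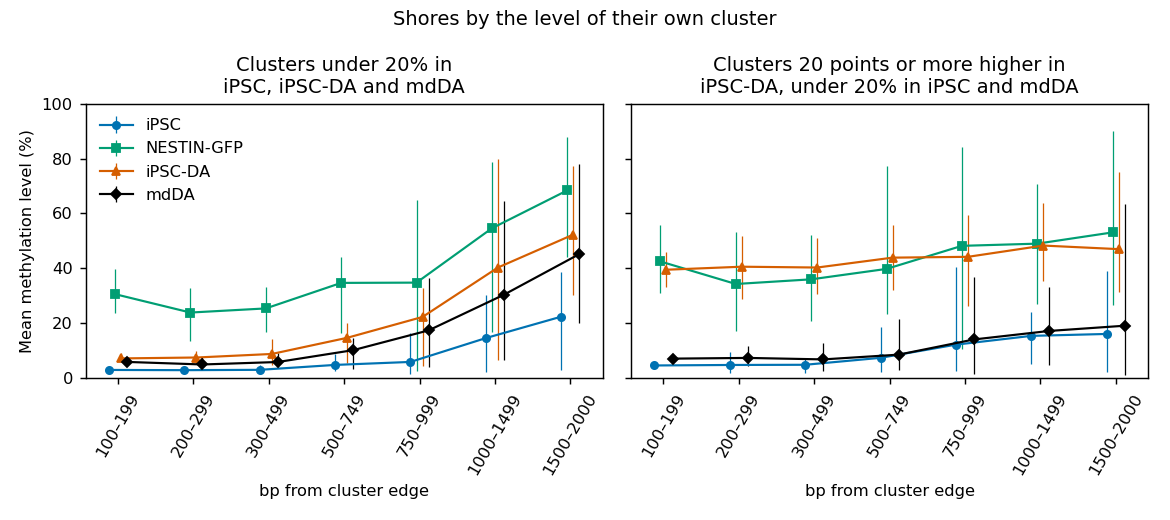
Mean methylation level in percent of interior shore positions against distance from the cluster edge in bp, beside clusters under 20% in iPSCs and both kinds of neuron (left) and beside clusters at least 20 points higher in iPSC-DA than in mdDA neurons (right). Points are means over positions and bars run from the lowest to the highest chromosome mean. At right the iPSC-DA library lay between 39.5% and 48.3%, while at left it stood at 7.19% beside 5.91% in mdDA neurons at 100 to under 200 bp.

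Whole shores were compared with their own clusters over the 5018 shores with at least 5 positions. In iPSC-DA neurons 1463 shores (29.2%) and 1650 of their clusters (32.9%) were at least 20 points above mdDA neurons. Both were in 1165 cases, which is 79.6% of those shores and 70.6% of those clusters. Shore and cluster differed more in the step from iPSCs to mdDA neurons, where 569 shores (11.3%) and 289 clusters (5.76%) were at least 20 points higher in mdDA neurons and 219 cases held both, 38.5% of those shores and 75.8% of those clusters. A shore stood at least 20 points above its own cluster in 415 cases in iPSCs (8.27%, 95% Wilson interval 7.54% to 9.06%), 816 in the iPSC-DA (16.3%, 15.3% to 17.3%) and 628 in the mdDA library (12.5%, 11.6% to 13.5%). These intervals, and those below, cover counting error only, since reads amplified by PCR are not independent molecules. Shores at lower and at higher coordinates than their cluster were alike, with mdDA means of 24.4% and 23.5%.

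Isolated shore CpGs were more methylated than grouped ones. The 31491 positions in runs of 5 to 9 averaged 11.4% in iPSCs, 38.6% in NESTIN-GFP precursors, 29.8% in the iPSC-DA and 17.4% in the mdDA library. The 9476 positions alone or in pairs averaged 28.4%, 70%, 48.6% and 41.2%. The order held at equal distance, since at 100 to under 200 bp the 2 kinds stood at 12.5% and 25.9% in mdDA neurons and at 1500 to 2000 bp at 40.7% and 69.3%. Positions alone or in pairs cannot be interior by the definition above, so this contrast could not be made on interior positions. Of shore positions in placed windows that were not interior, 53.5% were within CCGG, against 3.43% of interior ones. The contrast therefore cannot be told apart from that between CCGG and other CpGs. Interior positions in runs of 3 or 4 were at 17.7% in mdDA neurons, against 11.5% in runs of 5 to 9.

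The shores with the largest excess of iPSC-DA over mdDA neurons, a choice that favors low mdDA levels, were low in iPSCs too. Among 1378 shores off chromosome 18 that had 6 or more positions covered by 10 or more calls in every library, the median difference of pooled calls was 3.97 points (quartiles -0.370 and 28.5). Single shores were named as the extremes of pooled values, so their differences are descriptions with no test. A gene is given where a RefSeq start was placed within 2000 bp of the span of cluster and shore. The 8 shore positions at chr8:108042423-108042478 had 10.8% of calls methylated in iPSCs (95% Wilson interval 7.94% to 14.6%), 14.8% in NESTIN-GFP precursors (10.9% to 19.7%), 90.6% in the iPSC-DA (86.1% to 93.7%) and 3.50% in the mdDA library (2.13% to 5.69%). The iPSC-DA library stood alone there, and its cluster, 195 bp away, was at only 24.8% in iPSC-DA neurons. The 7 positions at chr9:20349306-20349364 stood at 4.34%, 27.6%, 79.1% and 5.21% in the same order. At chr2:22600446-22600525 the values were 5.42%, 7.14%, 79.5% and 7.94%, and at chr4:142801788-142801855 they were 7.27%, 30%, 78.6% and 10.2%. In all 4 the iPSC-DA shore, whose high level the choice favors, was above its own cluster, which read 24.8%, 46.9%, 26.0% and 37.8%.

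In the shores with the largest reverse difference, chosen for mdDA neurons above iPSC-DA neurons, the precursors were high as well. The 6 positions at chr8:86725473-86726590, 482 to 1599 bp out, had 16.4% in iPSCs, 95.1% in NESTIN-GFP precursors, 27.5% in the iPSC-DA and 86.1% in the mdDA library, beside a cluster between 3.88% and 6.63% in every library. The shore at chr8:86716045-86716251, of another cluster close by, was at 10.4%, 76.0%, 16.6% and 44.9%. At chr19:44836141-44836973 the values were 26.8%, 61.9%, 25.9% and 60.2%, and at chr4:146315938-146316155 they were 7.12%, 81.9%, 35.8% and 67.6%. The choice of these 4 put iPSC-DA neurons below mdDA neurons, and iPSCs stood below mdDA neurons in each of them too.

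The shores with the largest rise from iPSCs to mdDA neurons, a choice that favors high mdDA levels, were above 96% in mdDA neurons. At chr11:78509349-78509478, 1047 to 1176 bp from a cluster near the placed start of Nlk, a kinase of the Wnt and Notch pathways, the 6 positions were at 9.20% in iPSCs, 93.4% in NESTIN-GFP precursors, 96.2% in the iPSC-DA and 97.9% in the mdDA library, while the cluster stayed between 4.70% and 7.32% in all 4. The shore was high in 3 libraries and the cluster low in 4. The 6 positions at chr12:117642977-117643061, near the placed starts of D430020J02Rik and of Ncapg2, a subunit of the condensin II complex, went from 9.86% to 82.1%, 86.5% and 97.7%, beside a cluster between 1.90% and 4.24%. At chr10:80069142-80069256 the shore and the cluster rose together, the shore from 5.21% to 89.7%, 84.3% and 96.1% and the cluster from 9.99% to 94.9% in mdDA neurons. The shores near Nlk and Ncapg2 were also among the 3 with the largest excess of shore over own cluster in mdDA neurons. That choice favors a high shore beside a low cluster. The third of these, chosen by that excess and not by its rise, lay near the placed start of Dyrk1b, a protein kinase. Its 6 positions at chr7:28966581-28966670 were already at 72.1% in iPSCs and at 94.0%, 98.4% and 97.2% in the others, beside a cluster between 2.79% and 7.34%.

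The shores with the largest fall from iPSCs to mdDA neurons started from intermediate levels. The 6 positions at chr5:67614850-67614942 were at 55.2% in iPSCs, 37.2% in NESTIN-GFP precursors, 45.8% in the iPSC-DA and 5.44% in the mdDA library. At chr4:153846218-153846964 the values were 72.3%, 72.3%, 52.1% and 27.0%, and at chr14:109311034-109312067 they were 50.8%, 77.6%, 42.8% and 11.8%. The choice of these shores put mdDA neurons below iPSCs. In each of them iPSC-DA neurons lay between mdDA neurons and iPSCs, and the precursors stood above mdDA neurons.

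Genes were reached only where a promoter window could be placed, which held for 7545 genes, of which 4169 had a shore position within 2000 bp of the start. Of 20 genes listed for dopaminergic, pluripotent and neural identity, 8 were placed and 5 had shore positions, En1, Lmx1b, Pax6, Nes and Drd2. Together 32 of their 58 positions (55.2%) were called higher in iPSC-DA than in mdDA neurons and 0 lower, against 15.2% and 1.12% of the positions near all placed genes. In mdDA neurons 2 of 58 (3.45%) were called higher than in iPSCs, against 5.77% near all placed genes.

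En1 and Lmx1b encode homeobox factors of midbrain dopaminergic neuron development. Upstream of En1, at chr1:122497328-122498185, 12 positions averaged 14.8% in iPSCs, 34.1% in NESTIN-GFP precursors (9 positions), 37.7% in the iPSC-DA and 9.20% in the mdDA library. Downstream, at chr1:122500020-122500053, 4 positions were at 5.10%, 37.5%, 53.3% and 11.1%. Of these 16 positions 9 (56.2%) were called higher in iPSC-DA than in mdDA neurons, against 15.2% near all placed genes. Upstream of Lmx1b, at chr2:33497416-33497976, the 10 positions averaged 7.63% in iPSCs (0 to 22.7%), 57.4% in the precursors (37.5% to 71.4%, 9 positions), 49.9% in the iPSC-DA (17.2% to 73.5%) and 7.57% in the mdDA library (0 to 21.5%). Here 7 of 10 were called higher in iPSC-DA than in mdDA neurons, against the same 15.2%, and 0 of 10 between mdDA neurons and iPSCs.

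Pax6 encodes a paired-box factor of neural progenitors, and Nes the intermediate filament nestin of neural progenitors. Upstream of Pax6, at chr2:105507207-105508994, 18 positions averaged 7.77% in iPSCs, 11.8% in NESTIN-GFP precursors (13 positions), 36.7% in the iPSC-DA and 6.60% in the mdDA library. Of the 18, 10 (55.6%) were called higher in iPSC-DA than in mdDA neurons, against 15.2% near all placed genes. The precursors were low here, with 1 of 13 called above iPSCs, where the precursor share over all shore positions was 46.4%. On the 8 interior positions the means were 1.37% in iPSCs, 31.0% in the iPSC-DA and 0.122% in the mdDA library. In the printed Pax6 window the 8 shore positions were at 0.403% in the precursors, 24.7% in the iPSC-DA and 4.84% in the mdDA library. The 5 positions in the printed Nes window averaged 6.21% in iPSCs, 4.0% in the precursors, 14% in the iPSC-DA and 5.61% in the mdDA library, and the 3 downstream of the Nes start, at chr3:87776774-87776900, were at 18%, 65.5%, 43.4% and 15.6%. Drd2 encodes a dopamine receptor that also acts as the autoreceptor of dopaminergic neurons. Downstream of its start, at chr9:49149274-49149368, 5 positions were at 3.14% in iPSCs, 24.7% in the precursors, 30.5% in the iPSC-DA and 6.06% in the mdDA library. The 1 position upstream, at 49148110, read 15.4%, 100%, 80.8% and 66.7%.

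Shores of developmental transcription factors were often higher in iPSC-DA than in mdDA neurons, and shores of ribosomal, proteasomal and respiratory genes seldom. The lists were written as families of gene symbols with earlier results known, so that the counts are descriptions. Of 59 developmental transcription factors with at least 3 shore positions within 2000 bp of the start, 37 (62.7%) had a mean level at least 20 points higher in iPSC-DA than in mdDA neurons and 0 at least 20 points lower, with a median difference of 27.0 points. Over all 3394 placed genes 632 (18.6%) were that much higher, with a median of 2.06 points. Of the 673 positions near the 66 listed factors with any shore position, En1, Lmx1b and Pax6 among them, 302 (44.9%) were called higher and 2 (0.297%) lower. Near all placed genes these shares were 15.2% and 1.12%. Of the 673 positions 12 (1.78%) were called higher in mdDA neurons than in iPSCs, against 5.77% near all placed genes. Genes named here and in the next paragraph are from the largest and smallest differences of their list, among genes with 6 or more positions, and are not typical. Among the largest, Pou4f1, a factor of sensory neurons, averaged 9.01% in iPSCs, 10.8% in NESTIN-GFP precursors, 67.6% in the iPSC-DA and 11.1% in the mdDA library. Nkx2-3, a homeobox factor, stood at 13.5%, 42.2%, 62.4% and 10.3%. Foxa3 had the smallest difference, with 42.0%, 82.0%, 66.7% and 72.6%. Also among the smallest, Hoxa10, a homeobox factor of posterior identity, had 24 positions at 8.71%, 11.8%, 7.36% and 9.58%, low in every library.

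Signaling genes gave similar counts. Of 38 signaling ligands and receptors 19 (50%) were at least 20 points higher in iPSC-DA than in mdDA neurons, with a median of 20.3 points. Among the largest differences, Epha4, an ephrin receptor of axon guidance, averaged 7.39% in iPSCs, 35.9% in NESTIN-GFP precursors, 59.1% in the iPSC-DA and 10.1% in the mdDA library over 21 positions. Among the smallest, Notch1, the receptor of lateral inhibition, averaged 8.57%, 31.6%, 12.4% and 13.0% over 17. Of 64 genes of the ribosome, translation initiation, proteasome and respiratory chain 2 (3.12%) were at least 20 points higher and 1 lower, with a median of -0.663 points. Of the 498 positions near the 88 such genes with any shore position 17 (3.41%) were called higher in iPSC-DA than in mdDA neurons and 13 (2.61%) lower. Near all placed genes these shares were 15.2% and 1.12%. Of the 498 positions 47 (9.44%) were called higher in mdDA neurons than in iPSCs, against the same 5.77%. Rpl13, a protein of the large ribosomal subunit and among the smallest differences, stood at 10.5% in iPSCs, 62.5% in the precursors, 16.0% in the iPSC-DA and 35.2% in the mdDA library. Eif4g3, a translation initiation factor with the largest difference of this list, stood at 5.90%, 24.0%, 38.6% and 9.27%. In the precursors the median gene of this list was at 28.6%, that of the transcription factors at 32.7% and that of all placed genes at 38.4%.

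Levels at single shore positions followed each other between libraries. Over the 38663 positions with at least 5 calls in all 4 libraries, Pearson's r came to 0.764 for iPSC-DA against mdDA neurons, 0.755 between iPSCs and mdDA neurons, 0.655 between iPSCs and iPSC-DA neurons and 0.561 between iPSCs and NESTIN-GFP precursors. These positions share reads and the split into CCGG and other CpGs, and the values describe these libraries. Over positions in clusters r between iPSC-DA and mdDA neurons was 0.642, and beyond 2000 bp it was 0.755. On interior positions the order differed, with 0.719 on shores, 0.615 in clusters and 0.837 beyond 2000 bp. Where both cytosines of a CpG were covered on the shore, their levels differed by a median of 4.85 points in iPSCs, 4.98 in mdDA neurons, 7.66 in iPSC-DA neurons and 8.80 in the precursors. The precursors had 1440 such pairs against 2343 in each other library, and a median of 14 calls at shore positions against 40 to 47. Whether these differences go beyond the sampling of calls was not tested.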

How the data were processed

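RRBS libraries of 4 cell populations, 1 each, were analyzed. The authors digested DNA with MspI, sequenced reads of 40 bases and, per the labels and the paper's methods, used Bareback processing, FastQC, Trim Galore 0.3.5 and Bismark 0.10.1. The deposited files give for each cytosine position the counts of methylated and unmethylated calls and the percent methylated. Both were taken as deposited, and levels were recomputed from the counts. The build was not given in the sources used here, and the positions fit NCBIM37 (mm9).

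Strands were kept apart. Members and lists were chosen with earlier results of these data known. Means are over positions, with the range over 19 autosomes as a description. Each position was tested by a two-sided Fisher's exact test on its counts, adjusted by Benjamini-Hochberg over 809067 positions (619480 with NESTIN-GFP), and called at an adjusted p-value under 0.05 and at least 20 points. The test code was checked on simulated data. Of 32851 RefSeq promoter windows (GRCm38.p6), 8369 were placed on the file positions by CpG spacing, a step chosen after seeing the files. Of 8351 neighboring pairs 98.7% kept their distance within 1000 bp. Median calls at shore positions were 14 (NESTIN-GFP) to 47 (iPSC). Named shores were the 4 largest and 4 smallest iPSC-DA minus mdDA differences, the 3 largest rises and 3 largest falls from iPSC to mdDA, and the 3 largest shore minus cluster differences in mdDA, among shores off chromosome 18 that had 6 or more positions covered by 10 or more calls in every library. Alternatives varied the call minimum, cluster size, gap, depth, threshold and weighting. Python 3.11.15, numpy 2.4.6, pandas 2.3.3, numba 0.67.0 and matplotlib 3.10.9 were used.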

Additional observations from a re-analysis of the deposited data

Results flagged for a closer look

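Positions on the X chromosome entered no comparison above. Shore positions there, chosen by the same rule, had mean methylation levels of 11.4% in iPSCs, 37.2% in the iPSC-DA and 33.7% in the mdDA library over 1214 positions, and 43.7% in NESTIN-GFP precursors over 563 positions. The autosomal shore means were 16.0%, 35.0%, 24.0% and 48.9% in the same order. The X value was thus above the autosomal one in both neurons and below it in iPSCs and the precursors, with 1 library each and no test.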

How the results depend on the processing

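Of the values of 13 results under 18 alternatives, 159 stayed near the main value and 40 did not. A share called counted as near within a factor of 1.5, and a mean difference or rise within its SD over autosomes. No mean difference or rise changed sign, and a share called cannot. The NESTIN-GFP results with 5 or more calls in all 4 libraries equal the main ones by construction. The cause was not tested for any of the 40. With clusters of 5 or more positions, the percent called was 3.15 (lower in iPSC-DA than in mdDA), 1.26 (lower in iPSC-DA than in iPSCs), 16.5 and 1.70 (higher and lower in mdDA than in iPSCs) and 0.156 (lower in NESTIN-GFP than in iPSCs), the mean iPSC-DA minus mdDA difference was 7.11 points and the NESTIN-GFP rise 28.1 points. With clusters of 20 or more, the first 4 shares were 0.649, 0.191, 4.67 and 0.469, and the rises of iPSCs, iPSC-DA and mdDA neurons were 19.2, 30.7 and 28.3 points. With gaps under 200 bp the same 4 shares were 2.40, 0.811, 14.3 and 1.76, and no rise could be had because no shore position then lies under 200 bp from an edge. In runs of fewer than 5 positions the shares called lower were 2.24 (iPSC-DA against mdDA), 0.715 (iPSC-DA against iPSCs) and 0.161 (NESTIN-GFP), and the mean difference was 9.26 points. A mean over shores gave 9.27 points. A threshold of 30 points gave 0.858, 0.258 and 0.0931 percent lower, and 10 points 0.491 percent lower in NESTIN-GFP. Thinning gave 27.6 percent higher and 0.173 percent lower in NESTIN-GFP. Minimums of 10 and 20 calls gave 0.534 and 1.04 percent lower in NESTIN-GFP and rises of 43.1 and 51.5 points. Interior positions, chosen after seeing the data, gave 0.645, 0.186 and 0.0228 percent lower in the 3 comparisons, a difference of 12.9 points and rises of 19.7 (iPSCs), 28.3 (NESTIN-GFP) and 30.2 points (mdDA). No paired analysis was possible because each group had 1 library and the labels carry no replicate numbers. The median of 14 NESTIN-GFP calls at a shore position limits what single positions can show in that library.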
